A study of Homo sapiens with 6 samples.

Results

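The transcripts described here are 10 genes of the amino acid response and of the ATF4 stress pathway, each read by 1 bead-array probe. They were chosen by probe identifier and make up 10 of the 24526 probes on the arrays, and 10 of the 16923 genes that the probe annotation names. The probe annotation used here gave the intended gene for 10 of the 10. All 10 were detected on all 6 arrays and all were tested among 13186 probes, so none was lost to the filter on dim probes.

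The arrays came from OCM1A, an established human melanoma line that the labels give as uveal in origin. Cells grown in RPMI-1640 with serum, L-glutamine and antibiotics were put through a commercial MDR1 shift assay and sorted by flow cytometry. ABCB1pos cells are those in which the assay detected ABCB1 (P-glycoprotein, a membrane pump that exports many drugs), and they are compared with ABCB1neg cells, sorted as negative. Each fraction has 3 arrays, numbered 1 to 3, from 3 independent shift assays. Both fractions carry the same line, medium, assay and sort, and no unsorted cells were measured, so nothing here shows the level before sorting. As 1 cell line was used, the p-values speak only to variation among its 3 assays.

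When amino acids run short or the endoplasmic reticulum holds unfolded protein, kinases such as GCN2 and PERK phosphorylate the initiation factor eIF2alpha. Bulk protein synthesis then falls while translation of the ATF4 messenger RNA rises. ATF4 is a transcription factor that turns on genes for amino acid synthesis, amino acid import and tRNA charging, as well as the factor DDIT3 (CHOP), and its activity is set largely at translation, which an array does not read. In melanoma lines this pathway is known for its part in adaptation to nutrient shortage and to drugs.

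The sort marker was read first. ABCB1 had normalised log2 intensities of 8.79, 9.39 and 8.19 on the ABCB1pos arrays 1 to 3 and of 7.25, 7.24 and 7.18 on the ABCB1neg arrays. The groups did not overlap, and the log2 difference was 1.57 ± 0.20 (SE), or 2.97-fold (limma adjusted p = 0.00204). The 6 arrays detected between 12846 and 13183 probes each and their mean signals lay between 668 and 958. Of the melanocyte genes, 7 tested probes of MITF, TYR, TYRP1, PMEL, MLANA and SOX10 were read in both fractions and 0 of the 7 passed limma's test with or without the block, nor did any reach an unadjusted p under 0.05. Of 11 probes for markers of other cells, those of PTPRC (CD45, leukocytes), CD3E (T cells), VWF (endothelium) and DCN (fibroblasts) and 1 of 2 for CD14 (monocytes) were detected on no array. The other CD14 probe was detected on all 6, with signals of 97.5, 153 and 110 in ABCB1pos and of 75.2, 159 and 195 in ABCB1neg. PECAM1 (endothelium) was also detected on all 6, at 56.2, 54.4 and 50.3 in ABCB1pos and at 48.3, 24.9 and 63.4 in ABCB1neg. For CD14 the fractions overlapped. After normalisation PECAM1 was at 6.98, 7.12 and 7.03 in ABCB1pos and at 6.93, 6.65 and 6.90 in ABCB1neg, with no overlap. Among all tested probes 27.2% had none. Neither marker passed the test (limma adjusted p = 0.88 for CD14 and 0.256 for PECAM1). Their part in the results was not tested.

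The 10 genes did not change together between the fractions. In ABCB1pos cells ASNS fell 1.52-fold and DDIT3 rose 1.42-fold, and the other 8 members did not pass the test. Thus 2 of 10 members were called, 1 in each direction, where 20.3% of all tested probes were called (11.1% higher and 9.2% lower). That is 1469 higher and 1213 lower probes, against 1038 higher and 1642 lower with the authors' mean-scaled values. The members' share is near that background. Their median log2 difference was -0.01, against -0.02 over all tested probes, and their median absolute difference was 0.15, against 0.21. Differences are ABCB1pos minus ABCB1neg in limma, with the replicate number as a block and Benjamini-Hochberg adjustment over all 13186 probes. Without the block 1 member was called, ASNS, where 5.15% of all probes were (3.5% higher and 1.65% lower). With the block the count of called members was 0, 1 and 3 when the arrays numbered 1, 2 or 3 were left out. STC2 joined ASNS and DDIT3 in the last case. The share of all tested probes called in each of these fits is not given here, so these counts are not read as a result about the members. In sorted bulk RNA, fewer cells that express a gene and less RNA per cell cannot be told apart.

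**Figure D1:**
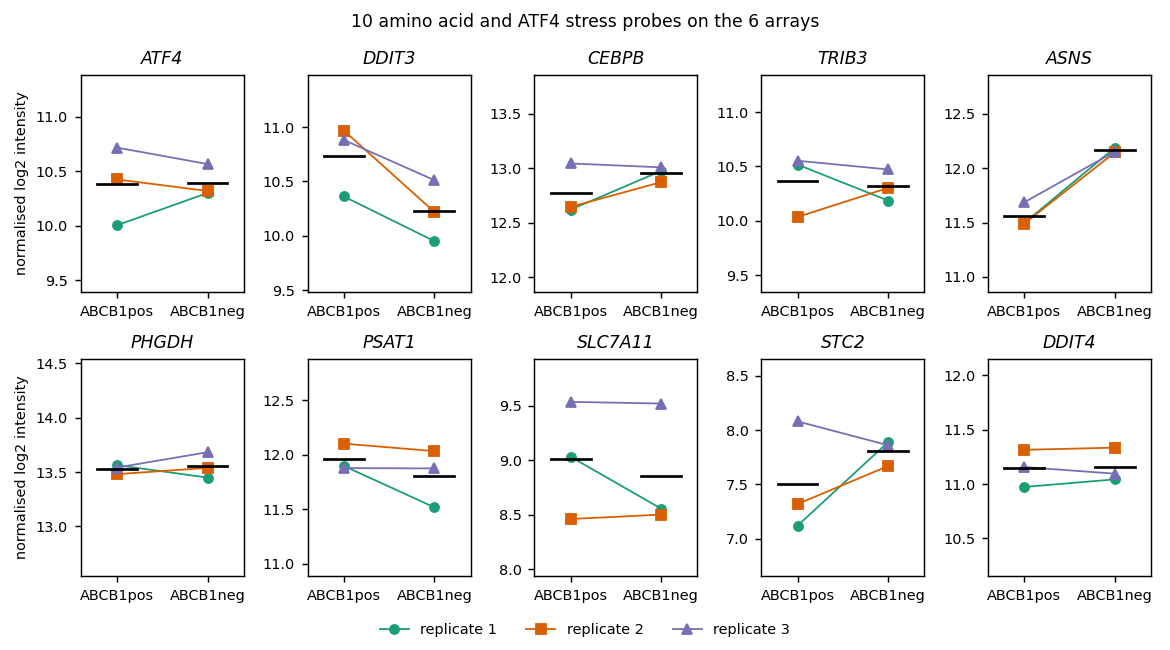
Normalised log2 intensity (vertical axis, each panel spanning 2 log2 units) of the 10 members on the ABCB1pos arrays (left) and the ABCB1neg arrays (right). Lines join arrays of the same replicate number and black bars are the means of 3 arrays; ASNS is the member whose 3 ABCB1pos values all lie below the 3 ABCB1neg values, and DDIT3 is higher in ABCB1pos within each of the 3 numbers.

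Among the regulators, ATF4 itself showed no called difference on its member probe, ILMN_2358457. Its log2 intensity was 10.01, 10.43 and 10.72 in ABCB1pos and 10.30, 10.32 and 10.57 in ABCB1neg, arrays 1 to 3. The groups overlapped, with ABCB1pos lower in number 1 and higher in numbers 2 and 3. The difference was -0.01 ± 0.13 (SE), with a 95% interval from -0.31 to 0.28 and a limma adjusted p of 0.953.

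The arrays carry 2 further ATF4 probes, and the 3 did not agree. ILMN_1672128 gave a signal of 19297, 20077 and 23313 in ABCB1pos and of 20666, 22028 and 30444 in ABCB1neg, before normalisation. After it, this probe was at 13.96, 14.39 and 14.40 in ABCB1pos and at 14.44, 14.67 and 14.80 in ABCB1neg, with no overlap. In ABCB1pos it fell by 0.39 ± 0.11 (SE, limma adjusted p = 0.0434). That call was lost without the block (limma adjusted p = 0.243) and in 17 of 22 alternative settings in all. ILMN_1783394 ran from 8.59 to 10.17 in ABCB1pos and from 9.10 to 10.37 in ABCB1neg, a difference of -0.21 ± 0.15 (SE, limma adjusted p = 0.36). Its arrays numbered 2 were the highest of both fractions. With cyclic loess, median or 75th percentile scaling in place of quantile normalisation, the difference of ILMN_1672128 lay between -0.14 and -0.04 and was not called. None of the 3 ATF4 probes was called higher.

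DDIT3 (ILMN_1676984) encodes CHOP, a transcription factor that ATF4 induces and that can promote cell death when stress lasts. Its log2 intensity was 10.36, 10.97 and 10.88 in ABCB1pos and 9.95, 10.22 and 10.51 in ABCB1neg. The fractions overlap, since ABCB1pos 1 lies below ABCB1neg 3, but ABCB1pos was higher within each number, by 0.41, 0.75 and 0.37. The difference of 0.51 ± 0.12 (SE, 95% interval 0.23 to 0.79) passed with the block (limma adjusted p = 0.024). It did not pass without the block (limma adjusted p = 0.212) or without the arrays numbered 1 (0.0706) or 2 (0.0799).

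CEBPB (ILMN_1693014) is a basic leucine zipper factor that can pair with ATF4. It was at 12.62, 12.65 and 13.05 in ABCB1pos and at 12.98, 12.87 and 13.01 in ABCB1neg. ABCB1pos 3 was the highest array and the other ABCB1pos arrays the lowest, so the fractions overlapped. The difference was -0.18 ± 0.12 (SE, limma adjusted p = 0.32). TRIB3 (ILMN_1787815), a pseudokinase that ATF4 and CHOP induce and that restrains ATF4 in turn, was at 10.52, 10.04 and 10.55 in ABCB1pos and at 10.19, 10.30 and 10.47 in ABCB1neg. ABCB1pos held both its lowest and its highest arrays, and the difference was 0.05 ± 0.14 (SE, limma adjusted p = 0.832).

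The member with the largest difference was ASNS (ILMN_1796417), asparagine synthetase, which makes asparagine from aspartate and glutamine. Its log2 intensity was 11.50, 11.49 and 11.69 in ABCB1pos and 12.19, 12.15 and 12.15 in ABCB1neg. All 3 ABCB1pos arrays lay below all 3 ABCB1neg arrays. ASNS was the 1 member of 10 without overlap, where 27.2% of all tested probes had none. The within-number differences were -0.69, -0.65 and -0.47, and the fit gave -0.60 ± 0.11 (SE, 95% interval -0.86 to -0.35, limma adjusted p = 0.00885). The size of this difference lies at the 90th percentile of all tested probes by absolute value.

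A second ASNS probe, ILMN_2398107, gave the same direction and nearly the same size. It was at 8.20, 8.07 and 8.15 in ABCB1pos and at 8.76, 8.82 and 8.73 in ABCB1neg, with no overlap. Its difference was -0.63 ± 0.11 (SE, limma adjusted p = 0.00706), and it also passed without the block (0.0256), as the member probe did (0.0333). Both ASNS probes passed in the 13 alternative settings that kept all 6 arrays. The member probe lost its call without the arrays numbered 1 (limma adjusted p = 0.0653), where the second probe kept it (0.0257). In the fit without the block, the member probe still passed with array ABCB1pos 2 left out and lost its call with any of the other 5 left out (limma adjusted p from 0.0518 to 0.155).

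ASNS is also the member whose promoter window holds the element that ATF4 binds together with a C/EBP partner. The letters searched were TGATGNAA on both strands (TTNCATCA on the other), in windows from 250 bases before to 50 bases after each RefSeq gene start on GRCh38.p14. Windows were matched for 9 of the 10 members, and 1 of the 9 had a match, against 4.46% of 27305 genes. Sequence outside the windows was not searched, so a gene without a match may still hold the element elsewhere. Of the 2 ASNS windows, 1 had the match. That ASNS window, chr7:97872359-97872658 on the minus strand, is shown with the match in capitals, at positions -68 to -61 from the start site.
ASNS: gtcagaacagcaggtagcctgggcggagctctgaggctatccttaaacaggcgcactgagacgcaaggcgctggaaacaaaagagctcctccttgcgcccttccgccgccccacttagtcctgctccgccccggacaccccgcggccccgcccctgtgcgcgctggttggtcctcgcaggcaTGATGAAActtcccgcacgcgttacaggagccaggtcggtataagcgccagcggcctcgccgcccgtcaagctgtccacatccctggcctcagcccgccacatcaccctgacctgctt

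The serine pathway enzymes did not share the fall of ASNS past the test. PHGDH (ILMN_1704537), which takes the first step of serine synthesis from a glycolytic intermediate, was at 13.56, 13.48 and 13.54 in ABCB1pos and at 13.45, 13.54 and 13.68 in ABCB1neg. It had the tightest ABCB1pos values of all members (SD 0.04, n = 3), and its difference was -0.03 ± 0.11 (SE, 95% interval -0.29 to 0.23, limma adjusted p = 0.883). PSAT1 (ILMN_1692938), the aminotransferase of the next step, was at 11.90, 12.10 and 11.88 in ABCB1pos and at 11.52, 12.03 and 11.88 in ABCB1neg. Only the arrays numbered 1 stood apart, by 0.38, and the difference was 0.15 ± 0.12 (SE, limma adjusted p = 0.411). A further PSAT1 probe, ILMN_1712563, was detected on no array and was not tested.

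SLC7A11 (ILMN_1655229) is the light chain of system xc-, which imports cystine in exchange for glutamate and answers to both ATF4 and NRF2. It was at 9.03, 8.46 and 9.54 in ABCB1pos and at 8.56, 8.50 and 9.52 in ABCB1neg. It varied more between replicate numbers than between fractions. Both arrays numbered 3 were the highest, and the number accounted for 91% of the variation between arrays and the fraction for 2.68%. The difference was 0.15 ± 0.13 (SE, limma adjusted p = 0.462), and nearly all of it came from number 1 (0.48, against -0.04 and 0.02 in numbers 2 and 3).

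STC2 (ILMN_1691884), a secreted glycoprotein induced by ATF4 in stress, was dim, with signals of 69.8, 71.6 and 169 in ABCB1pos and of 161, 118 and 222 in ABCB1neg before normalisation. After normalisation it was at 7.12, 7.32 and 8.08 in ABCB1pos and at 7.89, 7.67 and 7.86 in ABCB1neg. ABCB1pos 1 and 2 lay below all ABCB1neg arrays and ABCB1pos 3 above them. The difference was -0.30 ± 0.18 (SE, 95% interval -0.71 to 0.11, limma adjusted p = 0.269), the widest interval of the 10. Without the arrays numbered 3 it was -0.56 and called (limma adjusted p = 0.0259), and without those numbered 1 it was -0.06.

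DDIT4 (REDD1, ILMN_1661599), an inhibitor of mTORC1 that ATF4, hypoxia and glucocorticoids induce, was at 10.97, 11.31 and 11.16 in ABCB1pos and at 11.04, 11.33 and 11.10 in ABCB1neg. Its 3 numbers kept the same order in both fractions, with the number accounting for 95.8% of its variation, and its difference was -0.01 ± 0.11 (SE, 95% interval -0.26 to 0.24, limma adjusted p = 0.961).

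**Figure D2:**
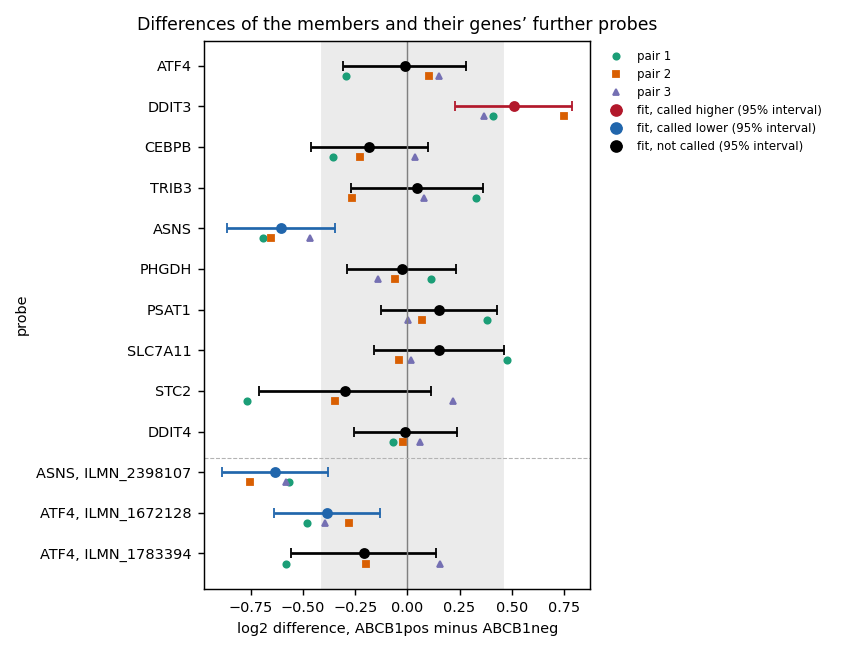
Log2 difference (ABCB1pos minus ABCB1neg) of the 10 members and, under the dashed line, of the further tested probes of ASNS and ATF4. Large points with bars are limma estimates with 95% intervals, small points are the 3 within-number differences, and the grey band holds the middle of all tested probes from the 10th (-0.41) to the 90th percentile (0.46); both ASNS probes lie at -0.60 and -0.63 and DDIT3 at 0.51.

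Members also differed in how much of their variation went with the ABCB1 fraction. It was 95.5% for ASNS and 51.1% for DDIT3, then 28.8% for CEBPB, 19.9% for STC2 and 16.7% for PSAT1. For PHGDH, SLC7A11, TRIB3, DDIT4 and ATF4 it was under that, between 0.0855% and 3.64%. Over all tested probes the fraction took 45% and the replicate number 42.3%. The replicate number took a larger share than the fraction for 8 members, all but ASNS and DDIT3. The number has more levels than the fraction, so on average it takes the larger share even where neither has an effect. Members did not move together from array to array either. The correlations of the 45 pairs of members over the 6 arrays ran from -0.67 (DDIT3 with ASNS) to 0.98 (CEBPB with STC2), with a median of 0.18, as a description of arrays that share assays and fractions.

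**Figure D3:**
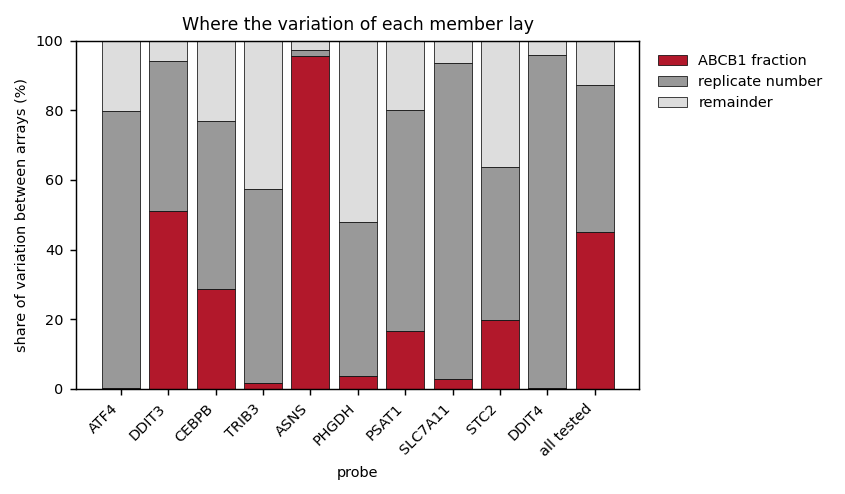
Share of the variation between the 6 arrays (vertical axis, percent) that went with the ABCB1 fraction, with the replicate number and with the remainder, for each member and summed over all tested probes. The fraction takes 95.5% for ASNS and 0.0855% for ATF4, against 45% over all tested probes.

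The wider pathway was read from 8 lists of 76 genes. These had 72 tested probes, of which 5 were called higher and 11 lower in ABCB1pos, 22.2% beside the 20.3% of all tested probes. Without the block 2 were higher and 6 lower, and with it 9 were called in all when the arrays numbered 1 were left out. The calls lost then were those of EIF4EBP1, MTHFD1L, SHMT1, SLC1A4, SLC1A5, YARS1 and 1 TXNRD1 probe. Leaving out number 2 lost SLC1A4 and YARS1, and leaving out number 3 lost MTHFD1L, SLC1A4, SLC1A5 and the other TXNRD1 probe. Other list probes gained a call in these 2 fits, which called 19 and 14 in all. The share of all tested probes called in each fit is not given beside these counts, so they are not read as a change of the lists. The lists' median log2 difference was -0.15, and 23 of the 72 lay above 0. Over all 13186 tested probes the median was -0.02, and 6255 lay above 0.

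Of the other ATF4 and CHOP targets, 3 of 12 tested probes were higher and 0 lower by limma, or 25%. Of all tested probes 20.3% were called, 11.1% higher. At an unadjusted p under 0.05 there were 4 higher and 1 lower in the list, without a share of all tested probes at that cutoff to set beside them. The list's median was 0.13. Both NUPR1 probes rose. NUPR1, a small stress-induced chromatin protein, was at 9.82, 10.01 and 10.62 in ABCB1pos and at 8.89, 9.22 and 9.04 in ABCB1neg on ILMN_2404688. The groups did not overlap, and the difference was 1.10 ± 0.16 (SE, limma adjusted p = 0.00365). On its other probe the difference was 0.86 ± 0.15 (SE, limma adjusted p = 0.00687). EIF4EBP1 (4E-BP1), which holds back cap-dependent translation, rose by 0.60 ± 0.11 (SE, limma adjusted p = 0.00843). Its fractions overlapped and it did not pass without the block (0.169) or with median scaling (0.0634). ATF3, CHAC1, SESN2, ATF5, CEBPG, JDP2 and PPP1R15A had differences between -0.20 and 0.17 and did not pass, and neither did GDF15 (0.36, limma adjusted p = 0.0618) nor VLDLR (-0.40, limma adjusted p = 0.0502).

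Of 8 tested serine, glycine and one-carbon probes, 0 were higher and 2 lower (25%, beside the 20.3% of all tested probes). SHMT1, the cytosolic serine hydroxymethyltransferase, was at -0.48 ± 0.11 (SE, limma adjusted p = 0.0177) on 1 of its 3 probes. MTHFD1L, a mitochondrial enzyme of formate production, was at -0.45 ± 0.12 (SE, limma adjusted p = 0.0352). Neither passed without the block. MTHFD1L was called in 7 of 22 alternatives and was at -0.22 in the fit without the block when array ABCB1pos 3 was left out, and SHMT1 was called in 12. MTHFD2 (-0.23), SHMT2 (-0.05) and PSPH (-0.05), the phosphatase that completes serine synthesis, did not pass. Of 5 probes for other amino acid enzymes 1 was lower (20%), ALDH18A1, which makes the precursor of proline. It was at 10.28, 10.16 and 10.02 in ABCB1pos and at 11.01, 10.93 and 10.63 in ABCB1neg. The fractions did not overlap. It fell by 0.70 ± 0.11 (SE, limma adjusted p = 0.0045), and it also passed without the block (0.0382).

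Amino acid transporters moved in both directions, with 1 of 8 tested probes higher and 1 lower (25%, beside the 20.3% of all tested probes). SLC1A5 (ASCT2), the glutamine importer, rose by 0.67 ± 0.16 (SE, limma adjusted p = 0.0247), at 10.76, 9.87 and 11.41 in ABCB1pos and 10.05, 9.64 and 10.35 in ABCB1neg. The fractions overlapped, and the array ABCB1pos 2 was below all but 1 of the others. SLC1A4, a neutral amino acid carrier, fell by 0.37 ± 0.11 (SE, limma adjusted p = 0.0485). In the fit without the block the SLC1A5 difference was 0.30 without array ABCB1pos 3 and 1.07 without ABCB1pos 2. With all arrays neither gene passed without the block (0.341 for SLC1A5 and 0.145 for SLC1A4), and of 22 alternatives SLC1A5 was called in 12 and SLC1A4 in 4. SLC7A5, the large neutral amino acid transporter LAT1, was at 0.14 and its partner SLC3A2 at -0.15, and neither passed.

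The cytosolic tRNA synthetases, typical ATF4 targets, gave 0 higher and 1 lower call in 15 tested probes (6.67%, beside the 20.3% of all tested probes). Of the 15, 12 lay below 0 and 3 above, with a median of -0.18, where 6255 of all 13186 tested probes lay above 0. At an unadjusted p under 0.05 there were 5 lower and 0 higher. The share of all tested probes at that cutoff is not given here, so this count has no background to be read against. The called one was YARS1, the tyrosyl enzyme, at -0.45 ± 0.11 (SE, limma adjusted p = 0.0259, 0.0925 without the block), and it was called in 9 of 22 alternatives. All 3 tested probes of the eIF2alpha kinases, for EIF2AK1, EIF2AK2 and EIF2AK4 (GCN2), lay between -0.24 and -0.18. They did not pass limma's test with or without the block, nor did any reach an unadjusted p under 0.05. The kinase PERK (EIF2AK3) had no probe under its name and was not read.

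The other arms of the unfolded protein response, read by 14 probes, had 1 higher and 2 lower calls and a median of -0.16. That is 21.4%, beside the 20.3% of all tested probes. At an unadjusted p under 0.05 there were 4 higher and 3 lower, again without the share of all tested probes at that cutoff. HSPA5 (BiP), the main chaperone of the endoplasmic reticulum, was at 10.20, 10.58 and 10.12 in ABCB1pos and at 11.28, 11.21 and 10.97 in ABCB1neg. Without overlap, it fell by 0.86 ± 0.12 (SE, limma adjusted p = 0.00345). HSP90B1 (GRP94), another chaperone of that compartment, fell by 0.66 ± 0.11 (SE, limma adjusted p = 0.00681), and both also passed without the block. HSP90B1 was not called with median scaling (-0.46, limma adjusted p = 0.0759) or 75th percentile scaling (-0.39, 0.0684). SDF2L1, a cofactor of that chaperone system, rose by 0.81 ± 0.13 (SE, limma adjusted p = 0.00587, 0.0969 without the block). XBP1 was at -0.34 and -0.21 on its 2 probes, and DNAJB9, EDEM1, CALR, MANF and HYOU1 lay between -0.30 and 0.36. None of these passed, and MANF was the highest of them (0.36, limma adjusted p = 0.0503).

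NRF2, the regulator of the antioxidant response, shares SLC7A11 with ATF4 as a target. The other NRF2 targets gave 4 lower calls in 7 tested probes, from 2 genes (57.1%, beside the 20.3% of all tested probes). NQO1, a quinone reductase, was at 12.72, 12.70 and 12.62 in ABCB1pos and at 14.33, 14.05 and 14.26 in ABCB1neg on ILMN_1720282. Without overlap, it fell by 1.53 ± 0.12 (SE, 2.89-fold, limma adjusted p = 0.000491). Its other probe was detected on none of the ABCB1pos arrays and on all 3 ABCB1neg arrays. It averaged 6.57 in ABCB1pos and 7.42 in ABCB1neg, at least 1.70-fold lower in ABCB1pos when undetected values are set to the lowest detected value of their array (limma adjusted p = 0.00207 on the measured values). TXNRD1, thioredoxin reductase, fell by 0.65 ± 0.12 and 0.55 ± 0.15 (SE) on its 2 probes (limma adjusted p = 0.00782 and 0.0397). The second of these, ILMN_1717056, did not pass without the block (0.0952), was called in 10 of 22 alternatives and was at -0.33 without the arrays numbered 3. SRXN1 (-0.21), GCLM (0.04), HMOX1 (-0.01) and, as given above, SLC7A11 itself did not pass.

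**Figure D4:**
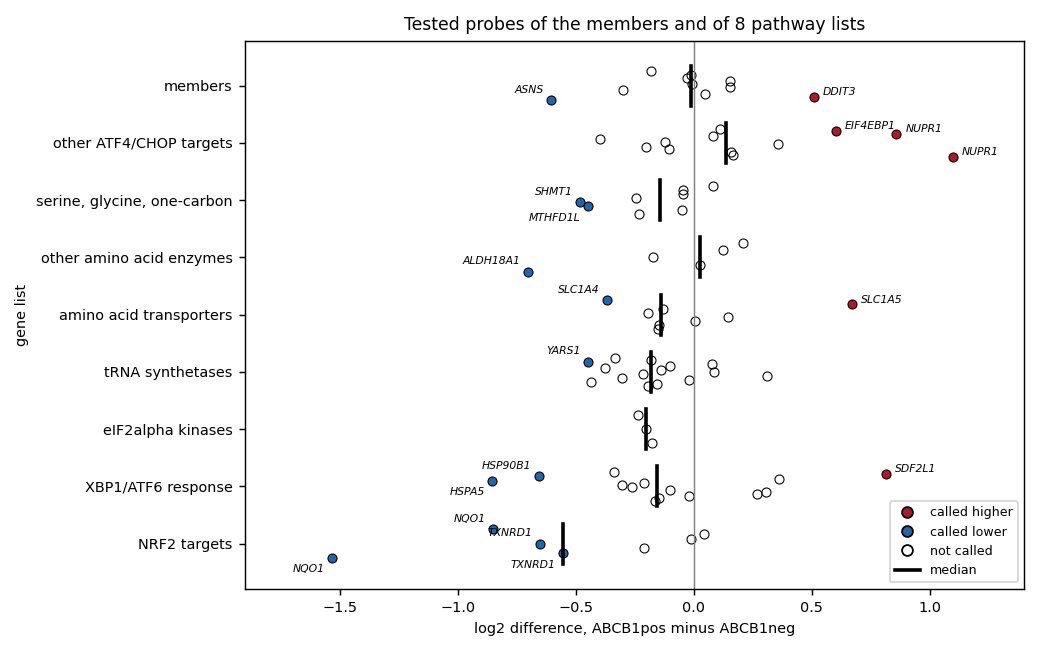
Log2 difference (ABCB1pos minus ABCB1neg, horizontal axis) of every tested probe of the members and of 8 pathway lists, with the median of each list as a black bar; filled points were called higher (red) or lower (blue) and open ones were not called. Calls of both directions appear among the members, the transporters and the XBP1 and ATF6 response, and the NRF2 targets reach -1.53 at NQO1.

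The ATF4 element was carried by promoter windows of 22 genes among the members and the lists. Their 19 tested probes, from 18 genes, had 1 higher and 4 lower calls (26.3%) and a median log2 difference of -0.15. Both ASNS probes are among the lower calls, so the calls come from 4 genes. The 54 tested probes of member and list genes whose windows had no match had 2 higher and 9 lower calls (20.4%) and a median of -0.17. Over all tested genes, the 270 probes of genes with a match had 25 higher and 41 lower calls (24.4%) and a median of -0.07. The 9767 probes of genes without one were called at 20.5%, with a median of -0.02. No test was made between carriers and the rest. Within the windows searched, the exact form TGATGCAA was found in 1.08% of all genes. It was in 6 of 10 tRNA synthetase genes with a window and in 0 of 9 members with a window. The 4 called carriers are shown as 30 bases of GRCh38.p14 around the match (capitals), because they share the element and differ in the direction of change. ASNS lies at chr7:97872458-97872487 on the minus strand, MTHFD1L at chr6:150866346-150866375 on the plus strand, SLC1A4 at chr2:64989381-64989410 on the minus strand and SLC1A5 at chr19:46784893-46784922 on the minus strand.
ASNS: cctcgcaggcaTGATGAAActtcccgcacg
MTHFD1L: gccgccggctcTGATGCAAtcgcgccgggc
SLC1A4: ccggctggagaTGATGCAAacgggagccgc
SLC1A5: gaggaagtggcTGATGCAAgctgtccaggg
Of these 4, ASNS, MTHFD1L and SLC1A4 were lower in ABCB1pos and SLC1A5 was higher.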

How the data were processed

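For each probe and array the table holds 2 columns, per the file headers: signal intensity and detection p-value. The deposited intensity values are linear and reach below 0, so some background had been subtracted. Which scanner software made them is not given in the sources used here. Each deposited p-value is a multiple of 1 in 664. In the series matrix the authors deposited the same intensity values multiplied by 1 constant per array, so that all arrays share a mean of 787.4.

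Values were corrected with normexp (offset 50, which compresses differences of dim probes), quantile-normalised and put on the log2 scale. Probes with a detection p under 0.05 on at least 3 arrays were tested in limma 3.58.1 (R 4.3.3) with lmFit and eBayes, two-sided, with the replicate number as a block, since the comparison was defined as paired by number. They were called at an adjusted p under 0.05. Equal numbers shared deviations from their group means (r = 0.48, 0.64 and 0.48 over probes), though the labels do not state the pairing. The procedure was run on simulated data with independent errors and far fewer changed probes than were called here. That run therefore does not vouch for these calls. With 3 arrays per fraction, precision is limited by their number.

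Genes come from GEO's platform annotation, which names 21834 of 24526 probes with 1 gene each and the other 2692 with none. Promoter windows are RefSeq's on GRCh38.p14. All members and their genes' further probes were named, and of each list up to 3 called probes per direction by size. Uncalled list genes, both NQO1 and TXNRD1 probes and the 30-base sites were chosen after their values were seen. The members and lists were chosen with earlier results of these data known. Scan batches were not analysed here.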

Additional observations from a re-analysis of the deposited data

How the results depend on the processing

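Of 22 alternatives, 13 kept all arrays. The paired fit called 2682 probes, 2 members and 16 pathway list probes. With no replicate block these were 679, 1 and 8, with median scaling 1348, 1 and 9, and with array weights 5513, 6 and 29. With no background correction 1 member and 10 list probes were called, and with the authors' mean-scaled values 1 member. The count of all probes called with no background correction is not given here. Leaving out arrays gave 20 to 2732 probes, 0 to 3 members and 1 to 19 list probes. The members' median log2 difference, -0.01, was 0.050 with 75th percentile scaling, 0.043 with cyclic loess, -0.068 with mean-scaled values (where the median of all tested probes was -0.11) and -0.078 to 0.054 with arrays left out. The causes were not tested.

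ASNS was called in 16 of 22 alternatives (its second probe in 17) and DDIT3 in 10, and neither changed sign. DDIT3 was not called with no background correction (limma adjusted p = 0.0705), median scaling (0.139) or mean-scaled values (0.0702). No member that changed sign was called in the paired fit. With 75th percentile scaling and cyclic loess ATF4 was 0.0112 and 0.0240, DDIT4 0.0235 and 0.0245, and PHGDH 0.128 and 0.0613. PHGDH was also 0.0588 with median scaling, 0.0592 with array weights and 0.0114 with mean-scaled values, where TRIB3 was -0.0423. With arrays left out ATF4 ran from -0.18 to 0.18 (its probe ILMN_1783394 from -0.62 to 0.20), DDIT4 from -0.093 to 0.079, PHGDH from -0.099 to 0.035, SLC7A11 from -0.11 to 0.48 and TRIB3 from -0.094 to 0.21. Dropping the replicate block changed the call of DDIT3 and of no other member. Dim probes depend on the background step: STC2 was -0.53 with no background correction, against -0.30.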
